A study of Mus musculus with 24 samples.

Results

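NF-kB subunits, their inhibitors and components of microbial sensing were followed across 4 regions of the gut of conventional mice, which carry a microbiota, and germ-free mice, which carry none. The members were all probe sets that the platform annotation names for Nfkbiz, Nfkbia, Nfkb1, Nfkb2, Rel, Rela, Relb, Tnfaip3, Myd88 or Cd14. They numbered 13 of the 12488 probe sets on the array and covered 9 of the 10 genes, among 8252 genes that single-gene probe sets name. Nfkb1, the gene of the p105/p50 subunit, was not analysed here. After a filter on low signals 10 of the 13 were tested, covering 8 genes. Rel and the second probe sets of Rela and Relb did not pass.

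Whole tissue was taken from the corpus, the part of the stomach other than the antrum, from the jejunum, and from the descending colon and rectum, which adjoin at the end of the gut. Total RNA of each region in each state was hybridised to 3 Affymetrix arrays, giving 24 arrays in 8 groups: conventional corpus, jejunum, descending colon and rectum, and germ-free corpus, jejunum, descending colon and rectum. The labels give no strain, age or sex. They do not say which arrays come from one animal, so the tests compare differences only with the scatter among arrays, part of which may be technical.

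NF-kB is a family of dimeric transcription factors built from Rela (p65), Rel, Relb, and the p50 and p52 subunits processed from the products of Nfkb1 and Nfkb2. Inhibitor proteins of the IkB family hold the dimers in the cytoplasm until a kinase complex marks the inhibitor for degradation. Many of the genes that the dimers then switch on encode brakes on the pathway itself, among them Nfkbia and Tnfaip3. In the gut the pathway is a main route from recognition of bacteria to gene expression: Cd14 presents lipopolysaccharide to Toll-like receptors, and Myd88 links those receptors to the kinases. Nfkbiz encodes an atypical, nuclear IkB protein that binds the dimers at their target genes and is itself induced by microbial products and cytokines.

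Because several of these regulators are also targets of NF-kB, their upstream sequences were examined for kappaB sites, the short element the dimers bind. RefSeq promoter windows (build GRCm38.p6) were used for 6 of the 10 genes (Nfkbia, Nfkb2, Rel, Rela, Tnfaip3 and Myd88), in 9 windows of 250 bases before an annotated start. Nfkbiz, Nfkb1, Relb and Cd14 did not enter this count. The member count left out 1 chromosome, which the count over all windows kept. A kappaB consensus was searched on both strands, with overlapping matches counted separately. It was present in 6 of the 9 windows, belonging to the 4 genes Nfkbia, Nfkb2, Rel and Tnfaip3, and in 3.90% of all 32851 windows of that length. Several of the 6 are windows of Nfkb2, parts of which overlap, so the 6 are not independent of each other. A looser pattern, GGG and CC separated by any 5 bases, was present in 8 of the 9 and in 45.8% of all windows. The looser pattern was the planned search. The consensus was chosen after seeing the data, so its contrast with all windows is a description only. The windows shown are those of an inhibitor, a subunit and a brake with measured signals, 5′ to 3′ in the direction of the gene, with matches to the consensus in capitals.
Nfkbia, 250 bases before the start, chr12:55492648-55492897, minus strand: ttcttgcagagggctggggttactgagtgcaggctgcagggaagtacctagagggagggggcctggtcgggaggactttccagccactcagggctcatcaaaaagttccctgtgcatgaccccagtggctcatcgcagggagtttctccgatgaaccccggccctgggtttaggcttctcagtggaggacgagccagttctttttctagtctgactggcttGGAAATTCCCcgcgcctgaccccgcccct
Nfkb2, 250 bases before the start, chr19:46304487-46304736, plus strand: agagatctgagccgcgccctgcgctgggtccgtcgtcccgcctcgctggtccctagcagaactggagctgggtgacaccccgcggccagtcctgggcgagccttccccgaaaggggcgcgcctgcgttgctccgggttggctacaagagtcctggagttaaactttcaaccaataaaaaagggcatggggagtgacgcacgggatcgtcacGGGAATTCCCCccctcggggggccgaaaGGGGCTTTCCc
Tnfaip3, 250 bases before the start, chr10:19015411-19015660, minus strand: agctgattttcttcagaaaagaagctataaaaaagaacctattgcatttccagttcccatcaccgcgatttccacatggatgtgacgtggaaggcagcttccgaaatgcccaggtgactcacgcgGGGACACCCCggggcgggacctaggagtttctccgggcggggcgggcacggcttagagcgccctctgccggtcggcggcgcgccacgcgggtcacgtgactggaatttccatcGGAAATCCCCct
The Nfkbia window held 1 match, GGAAATTCCC, which began 29 bases before the start. The Nfkb2 window held 3, at 39, 38 and 11 bases, of which the first and the next overlap (GGGAATTCCC and GGAATTCCCC). The Tnfaip3 window held GGGACACCCC at 125 bases and GGAAATCCCC at 12 bases. These are letter matches and not measured binding sites.

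The deposited signals are linear intensities in arbitrary units on arrays scaled to a common trimmed mean, and array medians ran from 68.6 to 103.5. In 3 libraries the genes that mark each region went against the label. The library labelled conventional jejunum 3 had Apoa4, an apolipoprotein of small-intestinal fat absorption, at 13.8 and the hindgut gene Hoxb13 at 1626. The library labelled conventional rectum 1 had Apoa4 at 2766 and Hoxb13 at 41.7, and the library labelled germ-free corpus 3 had the gastric proton pump gene Atp4a at 176 and Hoxb13 at 1399. The last of these resembled germ-free descending colon 3 more than any other 2 arrays resembled each other (r = 0.987 across probe sets, median absolute log2 difference 0.0882, against 0.979 and 0.178 for the next pair). Germ-free jejunum 3, germ-free rectum 1 and germ-free descending colon 1 carried markers of another region in part. Germ-free corpus 2, which was kept in the fits without 3 and without 6 libraries, had the hindgut gene Car1 at 1432.5, against 9.2 to 15.7 on the corpus arrays other than it and germ-free corpus 3. All libraries were kept under their labels. Results are also given without the first 3 libraries where this changes them, and in places without all 6.

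Of the 10 tested member probe sets 1 fell in the germ-free jejunum, Nfkbiz, and the other 9 did not pass the test. Across all 9033 tested probe sets 0.244% were lower there and 0.465% were called in either direction. The fall of Nfkbiz in the germ-free jejunum was known when the members were chosen. Its count beside these shares and its p-value are therefore a description and not an independent test. The main Nfkbiz probe set, 98988_at, read 426.7, 426.4 and 249.3 on the conventional jejunum arrays and 98.2, 84.5 and 166.2 on the germ-free ones. Every germ-free array was below every conventional array, and the closest approach was between conventional jejunum 3 and germ-free jejunum 3, both of them libraries with markers of another region. Germ-free jejunum averaged 116 ± 43.8 (SD, n = 3) and conventional jejunum 367 ± 102 (SD, n = 3), a 3.20-fold lower level (log2 difference -1.68 ± 0.30 SE, 95% interval -2.32 to -1.04, limma adjusted p = 0.016). Without 3 libraries the difference was -1.94 ± 0.24 (adjusted p = 8.79e-04), and without 6 it was -2.23 ± 0.20 (adjusted p = 8.12e-05). The call was lost, with differences between -1.48 and -1.59, when conventional jejunum 1 or 2 or germ-free jejunum 1 or 2 was left out (adjusted p = 0.0698, 0.0736, 0.103 and 0.0939), and when the fit held only the 6 jejunum arrays (adjusted p = 0.270).

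Elsewhere in the gut Nfkbiz did not pass the test between states. In the corpus the conventional arrays read 237.1, 209.4 and 192.7 and the germ-free arrays 242.1, 241.2 and 147.6 (log2 difference -0.05 ± 0.30, adjusted p = 0.969). The germ-free value under the others came from the library labelled germ-free corpus 3. In the descending colon they read 221.6, 222.8 and 202.8 against 205.6, 170.0 and 145.3, with 1 germ-free array inside the conventional range (-0.33 ± 0.30, adjusted p = 0.799). In the rectum they read 411.8, 216.0 and 167.9 against 205.6, 190.8 and 233.8, and the groups overlapped (-0.23 ± 0.30, adjusted p = 0.982). The 411.8 belongs to the library labelled conventional rectum 1, whose nearest array was conventional jejunum 1. Without 3 libraries the signs in corpus and rectum turned, to 0.19 and 0.14, and neither passed.

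Averaged over the 4 regions, Nfkbiz was 178 ± 52.4 (n = 12) in germ-free and 265 ± 96.5 (n = 12) in conventional mice (-0.57 ± 0.15, adjusted p = 0.0616), and 0 members were called where 1.68% of all probe sets were. At an unadjusted p under 0.05 there were 2 members, both of them probe sets of Nfkbiz but of opposite sign, among 18.1% of all probe sets: 98988_at was lower and 161903_f_at higher in germ-free mice (0.59 ± 0.27, adjusted p = 0.256). Probe set 161903_f_at passed the filter only through germ-free arrays, which biases it toward a higher germ-free level. Without 3 libraries the mean difference of 98988_at passed (-0.49 ± 0.12, adjusted p = 0.0448). Whether the status effect of Nfkbiz differed between regions was asked with a moderated F test, which called 0 members against 0.0221% of all probe sets. At an unadjusted p under 0.05 the test held 5.40% of all probe sets and 1 member, Nfkbiz by 98988_at (limma F test, adjusted p = 0.857). Without 3 libraries the F test called Nfkbiz (adjusted p = 0.0248), and without 6 its adjusted p was 0.00266. Both reduced sets were chosen after seeing the data. The F test and the mean over regions include the jejunum values for which Nfkbiz was chosen. Their p-values for 98988_at are therefore descriptions and not independent tests.

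A weaker Nfkbiz probe set, 161903_f_at, did not follow the main one. It lay above the filter of 51.5 on 4 of 24 arrays and above the floor of 21.2 on 12. Those 4 were germ-free descending colon 2 and 3, germ-free corpus 3 and germ-free jejunum 3, against a conventional maximum of 50.1. Its status comparisons are therefore biased toward a higher level in germ-free mice. Its correlation with 98988_at over the 24 arrays was -0.12, a description only. In the jejunum it read 24.4, 50.1 and 17.3 in conventional and 17.0, 4.8 and 53.0 in germ-free mice, so it gave no direction there (-0.04 ± 0.54, adjusted p = 0.995). In the descending colon it read 21.6, 18.6 and 7.1 against 15.7, 54.0 and 96.0 (1.17 ± 0.54, adjusted p = 0.612), and without 6 libraries that difference was 1.75 ± 0.37 (adjusted p = 0.0247). Of the arrays then left, only germ-free descending colon 2 and 3 read over the filter, which asks for 3 arrays. The call rests on the same arrays that brought the probe set into the test, so it is not independent support. The fall of Nfkbiz in the jejunum rests on a single probe set.

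**Figure D1:**
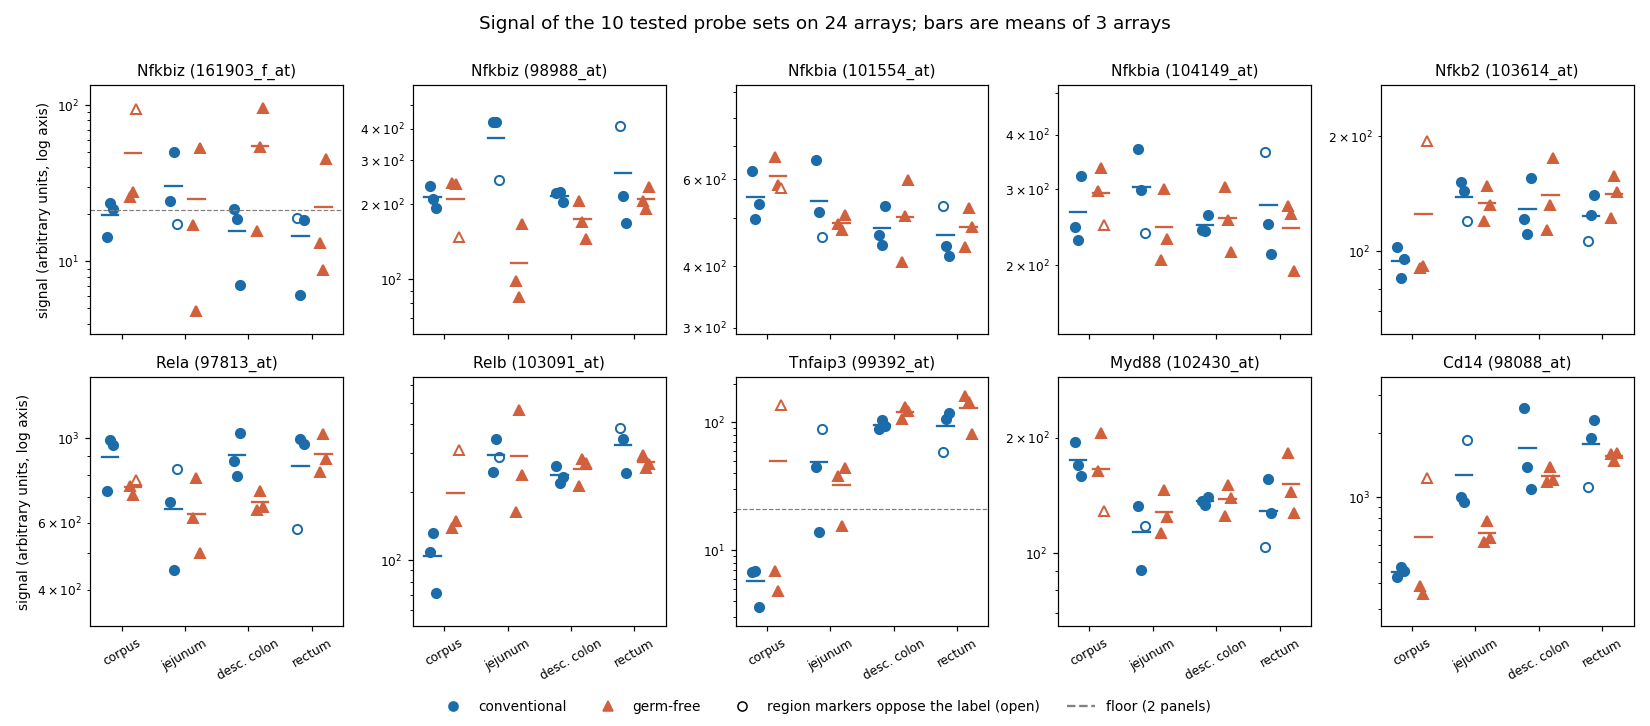
Signal of the 10 tested member probe sets on each of 24 arrays (y axis, arbitrary units, log scale) by region (x axis); circles are conventional, triangles germ-free, bars the means of 3 arrays, and open symbols the 3 libraries whose region markers opposed their labels. In the Nfkbiz panel (98988_at) the germ-free jejunum arrays sit at 84.5 to 166.2, all under the conventional ones at 249.3 to 426.7.

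**Figure D2:**
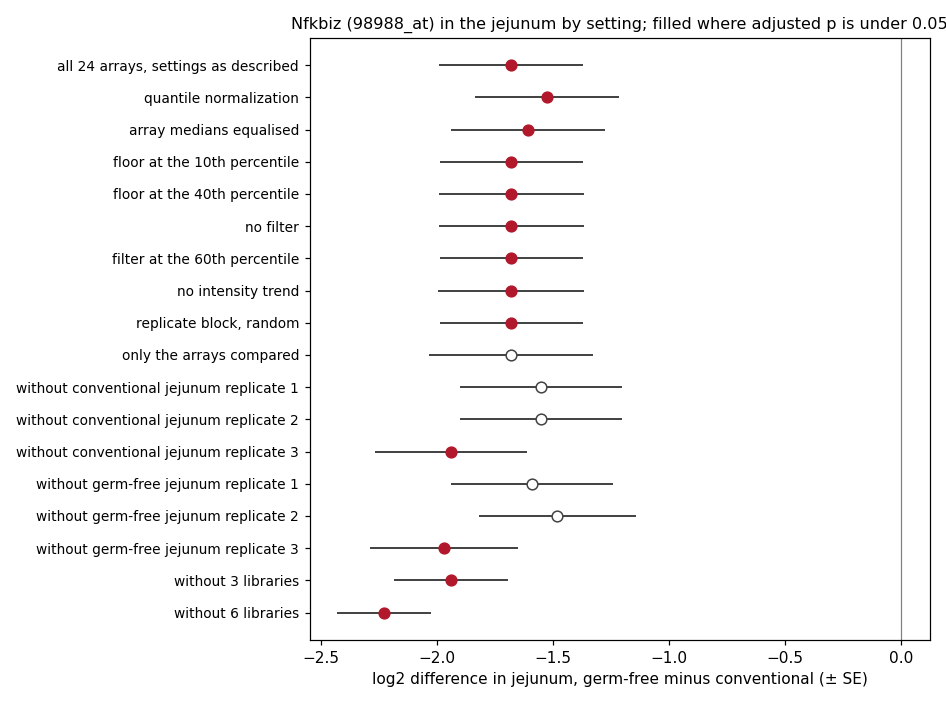
Log2 difference of Nfkbiz (98988_at) in the jejunum, germ-free minus conventional (x axis, ± SE), under each processing setting and with single arrays left out (y axis); filled points have an adjusted p under 0.05. All estimates lie between -2.23 and -1.48, and 5 of the 18 settings drawn have open points.

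The classical inhibitor Nfkbia (IkB alpha) was measured by 2 probe sets, neither of which passed the test in any region. Probe set 101554_at read 656.5, 514.5 and 458.6 in conventional and 486.9, 473.9 and 507.6 in germ-free jejunum, overlapping throughout (-0.13 ± 0.17, 95% interval -0.48 to 0.21, adjusted p = 0.797). The -1.68 of Nfkbiz lies outside that interval. Nfkbiz was chosen with its fall known, however, and the difference between the 2 genes was not tested. Probe set 104149_at read 372.2, 298.0 and 238.0 against 205.3, 300.0 and 229.7 (-0.30 ± 0.23, interval -0.78 to 0.18, adjusted p = 0.629). Over all 24 arrays the first ran from 408.1 to 664.4 and the other from 194.3 to 372.2, and their correlation was 0.35. Tnfaip3 (A20), a ubiquitin-editing enzyme that shuts off signalling to NF-kB, read 45.0, 13.8 and 88.6 in conventional and 38.3, 15.5 and 43.6 in germ-free jejunum. These values straddled the floor, and the groups overlapped (-0.42 ± 0.57, adjusted p = 0.822).

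In the descending colon the germ-free Tnfaip3 arrays, at 106.6, 131.1 and 122.2, all lay above the conventional ones, at 88.4, 103.4 and 94.1. The difference was small beside its error (0.33 ± 0.57, adjusted p = 0.917), and groups of this kind, germ-free above conventional without overlap, made up 8.16% of all probe sets in that region. No member was called in the descending colon, where 0.0111% of all probe sets were. Under an unadjusted p of 0.05 there was 1, the Nfkbiz probe set 161903_f_at, among 8.11% of all probe sets. That probe set had passed the filter only through germ-free arrays.

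Among the subunits, Rela (97813_at), the main transactivating partner, read 680.3, 451.0 and 829.6 in conventional and 617.7, 784.6 and 501.2 in germ-free jejunum, with no separation (-0.02 ± 0.23, interval -0.50 to 0.45, adjusted p = 0.993). In the descending colon its germ-free arrays, at 649.6, 726.5 and 658.8, were all under the conventional ones, at 873.5, 797.9 and 1032.7. That difference did not pass (678 ± 42.0 against 901 ± 120, -0.40 ± 0.23, adjusted p = 0.654), and germ-free below conventional without overlap held for 5.88% of all probe sets there. Nfkb2, the precursor of p52, read 152.1, 143.8 and 120.0 against 120.1, 148.7 and 132.3 in the jejunum (-0.05 ± 0.25, interval -0.58 to 0.48, adjusted p = 0.972), again overlapping.

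Relb (103091_at), the partner of p52 in the noncanonical pathway, read 246.6, 344.9 and 286.8 in conventional and 163.1, 463.5 and 239.3 in germ-free jejunum. The germ-free arrays spanned the whole conventional range (-0.14 ± 0.33, adjusted p = 0.913). In the corpus it read 109.1, 131.7 and 71.5 in conventional and 138.7, 149.1 and 307.7 in germ-free mice, without overlap, which 7.79% of all probe sets showed in the same direction. The difference did not pass (0.88 ± 0.33, unadjusted p = 0.0151, adjusted p = 0.432). The 307.7 belongs to germ-free corpus 3, and without 3 libraries the difference was 0.51 ± 0.33 (adjusted p = 0.864). No probe set of any kind was called between states in the corpus, where 9.04% had an unadjusted p under 0.05, among them 1 member, Relb.

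Rel, the c-Rel subunit of lymphoid and myeloid cells, was measured by 98813_at, which read at most 18, under the floor, on every array. The second Rela probe set, 162042_i_at, reached at most 6.7, and the second Relb probe set, 162372_f_at, at most 46.9. None of the 3 was tested, and they carry no information on direction.

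On the sensing side, Cd14 read 1005.8, 949.0 and 1836.8 in conventional and 615.4, 778.0 and 648.7 in germ-free jejunum. All germ-free arrays were below all conventional ones, as for 8.47% of all probe sets in the jejunum. Cd14 and Nfkbiz were the 2 members with an unadjusted p under 0.05 there, among 13.1% of all probe sets. The mean was 681 ± 85.9 against 1264 ± 497, but the difference did not pass the test (-0.83 ± 0.38, interval -1.63 to -0.03, unadjusted p = 0.042, adjusted p = 0.352). The highest value, 1836.8, came from the library labelled conventional jejunum 3. Without 3 libraries the difference was -0.53 ± 0.24 (adjusted p = 0.382).

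In the corpus Cd14 read 425.2, 474.9 and 452.0 in conventional and 384.4, 352.6 and 1229.4 in germ-free mice. The highest of these belongs to germ-free corpus 3, and without 3 libraries the sign turned, from 0.29 ± 0.38 (adjusted p = 0.837) to -0.29 ± 0.24 (adjusted p = 0.915). In the descending colon the readings were 2589.2, 1377.3 and 1092.8 against 1171.8, 1376.2 and 1208.6, all germ-free values falling inside the conventional range (-0.33 ± 0.38, adjusted p = 0.844). In the rectum they were 1110.3, 1888.4 and 2283.5 against 1594.6, 1471.2 and 1610.4, again inside it (-0.11 ± 0.38, adjusted p = 0.990). In both of these regions the conventional arrays spread more widely than the germ-free ones, with SDs of 795 and 597 against 109 and 76.2, a spread that was not tested.

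Myd88, the adaptor, ran from 90.5 to 205.6 over the 24 arrays. It read 132.6, 90.5 and 118.0 in conventional and 113.1, 146.2 and 124.0 in germ-free jejunum (0.18 ± 0.21, interval -0.26 to 0.62, adjusted p = 0.789), and 137.0, 133.7 and 140.3 against 125.1, 150.3 and 139.0 in the descending colon (0.01 ± 0.21, adjusted p = 1.000). The groups overlapped in both. In the rectum 0 members were called, where 0.0111% of all probe sets were called and 3.49% had an unadjusted p under 0.05, and 0 members fell under that unadjusted limit.

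Over the 10 tested member probe sets in the jejunum 9 differences were negative and 1 positive, with a median of -0.14 against -0.02 over all tested probe sets. That sign pattern depended on scaling: with array medians equalised 7 were negative and 3 positive. Non-overlapping groups were found for 2 members in the jejunum (Nfkbiz and Cd14, both lower), 2 in the corpus (Relb and the weaker Nfkbiz probe set, both higher) and 2 in the descending colon (Tnfaip3 higher, Rela lower), against 15.4%, 13.1% and 14.0% of all probe sets in either direction. The weaker Nfkbiz probe set had passed the filter only through germ-free arrays.

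**Figure D3:**
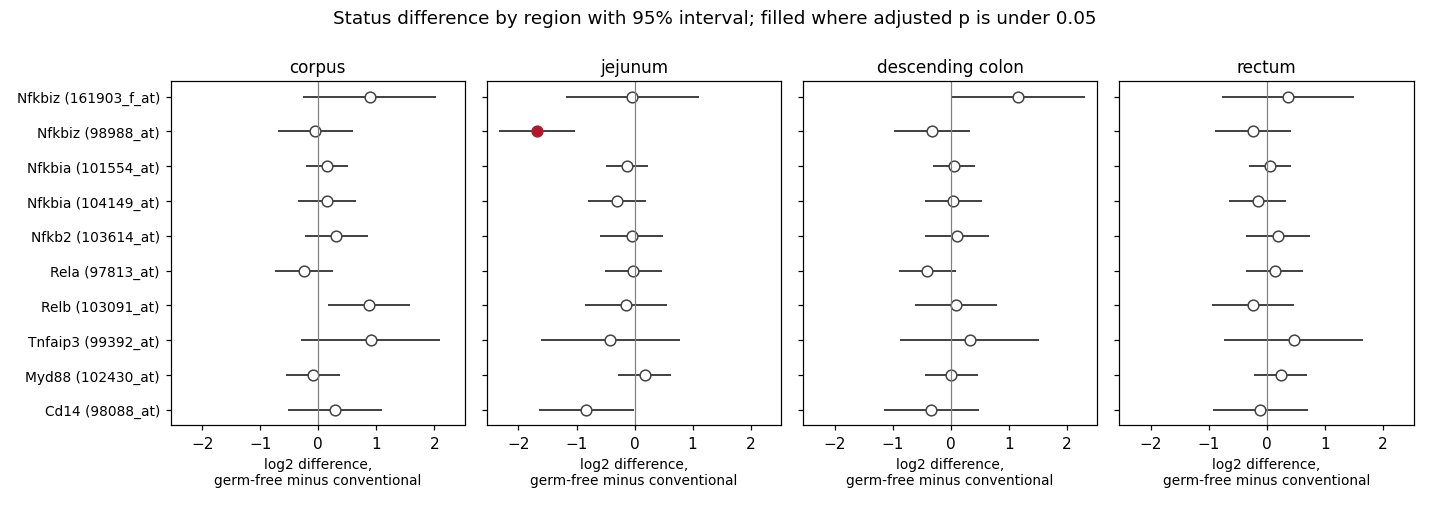
Log2 difference between germ-free and conventional arrays (x axis) with its 95% interval for each tested member probe set (y axis) in each of 4 regions; the filled point has an adjusted p under 0.05. Nfkbiz (98988_at) in the jejunum, at -1.68, is the only filled point.

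With both states averaged, 3 of the 10 passed between jejunum and corpus, against 32.9% of all probe sets. In the jejunum 2 were higher and 1 was lower, against 13.7% and 19.2% of all probe sets. Relb was 291 ± 104 (n = 6) in the jejunum and 151 ± 81.4 (n = 6) in the corpus, 2.02-fold higher (1.01 ± 0.23, adjusted p = 0.0021). Cd14 was 972 ± 451 against 553 ± 334, 1.82-fold higher (0.86 ± 0.27, adjusted p = 0.0187). The Cd14 call was lost, at an adjusted p between 0.0519 and 0.0621, when conventional jejunum 3, germ-free corpus 1 or germ-free corpus 2 was left out, and without 3 libraries it was stronger (1.00 ± 0.17, adjusted p = 9.99e-05). Myd88 was 1.41-fold lower in the jejunum (121 ± 18.9 against 170 ± 27.4, -0.50 ± 0.15, adjusted p = 0.0145). Its call did not hold under quantile normalization (-0.36, adjusted p = 0.0992) or with array medians equalised (-0.31, adjusted p = 0.187).

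Without 3 libraries Nfkb2 and Rela joined this comparison. Nfkb2 was then 139 ± 13.1 (n = 5) in the jejunum and 93.1 ± 6.61 (n = 5) in the corpus (0.60 ± 0.16, adjusted p = 0.0052), where with all libraries its difference was 0.37 ± 0.18 (adjusted p = 0.128). Nfkb2 also passed under quantile normalization (0.49, adjusted p = 0.0284) and with array medians equalised (0.55, adjusted p = 0.0107). Rela was then 607 ± 135 against 827 ± 136 (-0.45 ± 0.15, adjusted p = 0.0199), where with all libraries it was -0.37 ± 0.16 (adjusted p = 0.0876).

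Between descending colon and corpus 3 of the 10 members were called, all higher, against 18.3% of all probe sets called, 9.49% higher and 8.77% lower. Cd14 was 2.82-fold higher in the colon (1469 ± 560 against 553 ± 334, 1.49 ± 0.27, adjusted p = 6.0e-04), and 3.44-fold higher without 3 libraries. Tnfaip3 was 3.68-fold higher on the floored scale (108 ± 16.3 against 27.7 ± 53.7, 1.88 ± 0.40, adjusted p = 0.0022). Its 6 colon readings ran from 88.4 to 131.1, and 5 of its 6 corpus readings, between 3.6 and 6.9, were under the floor of 21.2. The remaining corpus reading, 137.4, belongs to germ-free corpus 3. Without 3 libraries all corpus readings were at the floor and Tnfaip3 was at least 5.03-fold higher in the colon (limma adjusted p = 2.92e-07). Set to the floor, those readings have no spread, so that p-value is a description only. Tnfaip3 read over the filter of 51.5 on 14 of 24 arrays. These were all descending colon or rectum arrays, apart from conventional jejunum 3 and germ-free corpus 3, libraries with hindgut markers. It passed the filter through the regions where it is called high, so its regional calls are not independent support. Relb was 1.79-fold higher in the colon (0.84 ± 0.23, adjusted p = 0.0150), a call lost without conventional corpus 3 (adjusted p = 0.0512) or germ-free corpus 1 (adjusted p = 0.0530).

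Between descending colon and jejunum 1 member passed, Tnfaip3, which was higher, against 14.4% of all probe sets called and 9.10% called higher. It was 108 ± 16.3 in the colon and 40.8 ± 27.2 in the jejunum, 2.81-fold higher (1.49 ± 0.40, adjusted p = 0.0185). The call was lost without conventional jejunum 2 (adjusted p = 0.0623) or germ-free jejunum 2 (adjusted p = 0.0501). With the floor at the 10th percentile it was lost too (1.67 ± 0.58, adjusted p = 0.0606), and without 3 libraries the difference was 1.74 ± 0.24 (adjusted p = 1.94e-05). Tnfaip3 had passed the filter through descending colon and rectum arrays, so this call is not independent support either. Its jejunum readings of 13.8 and 15.5 were set to the floor. Without 3 libraries so were all its corpus readings, which enter the same estimate of the spread. Without 3 libraries Cd14 (0.79 ± 0.16, adjusted p = 0.00122) and Rela (0.41 ± 0.14, adjusted p = 0.0386) were also higher in the colon. Between rectum and descending colon 0 members were called, as were 0 of all probe sets (2.24% at an unadjusted p under 0.05, 0 members among them). Neither Nfkbiz probe set passed in any of the 4 regional comparisons, with estimates between -0.12 and 0.24 for 98988_at and between -0.41 and 0.13 for 161903_f_at. These comparisons average the states, and for 98988_at the jejunum mean lay above the corpus mean in conventional mice (367 against 213) and below it in germ-free mice (116 against 210.3).

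In order of mean signal over 6 arrays, Cd14 ran from corpus (553) through jejunum (972) and descending colon (1469) to rectum (1660), and with all libraries the neighbouring steps from jejunum to colon and from colon to rectum did not pass. Tnfaip3 ran from corpus (27.7) and jejunum (40.8) to descending colon (108) and rectum (112), with only the step from jejunum to colon passing between neighbours. Epithelial markers differed from the corpus too: of 10 tested epithelial probe sets 8 were higher in the jejunum and 8 in the descending colon (median log2 differences 1.95 and 1.75). Between descending colon and jejunum 0 of the 10 were called (median 0.05). Their summed signal ran from 6908.1 to 11469.3 in conventional corpus and from 21821.7 to 27705.4 in conventional descending colon, and their part in the regional differences was not tested. Of 16 tested macrophage and monocyte probe sets 2 were higher and 0 lower in the colon than in the corpus (median 0.14). In the jejunum 3 of them were higher and 2 lower (median -0.04). Of all probe sets 9.49% were called higher in the colon than in the corpus, and 13.7% in the jejunum. Lower in the jejunum than in the corpus were 6 of 6 smooth muscle and 9 of 11 fibroblast and stroma probe sets, against 19.2% of all. In the colon 0 of 6 and 4 of 11 were lower, against 8.77%. The part of these cells was not tested either.

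Other genes of the pathway were described from lists. Of 75 tested probe sets in 5 lists, 1 was called in the jejunum, Cflar, an inhibitor of death-receptor signalling counted among the known targets. It was higher in germ-free mice, at 145 ± 27.6 against 46.6 ± 17.8 (1.70 ± 0.37, adjusted p = 0.0415), the opposite direction to Nfkbiz, and without 3 or without 6 libraries no known target was called higher. Without 6 libraries 2 known targets, chosen after their values were seen, were called lower, as Nfkbiz was: Nos2, the inducible nitric oxide synthase, and Vcam1, an adhesion molecule for leukocytes. The kinase complex and its adaptors gave 0 calls among 13 probe sets (median -0.03). The nearest to the threshold was Tank, a TRAF-binding protein, at 113 ± 35.0 against 171 ± 28.7 (-0.63 ± 0.29, adjusted p = 0.349). Other inhibitors and brakes gave 0 calls among 10 (median 0.22). Of these, one probe set of Traf4, 162482_at, was at 821 ± 280 against 379 ± 62.1 (1.07 ± 0.26, adjusted p = 0.078), while the other Traf4 probe set differed by 0.20. Without 6 libraries 1 Traf4 probe set was called higher (1.22, adjusted p = 0.0196). Bcl3, an atypical nuclear IkB protein like Nfkbiz, differed by -0.90 ± 0.70 (adjusted p = 0.640).

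Microbial sensors gave 0 calls among 8 probe sets, 7 of them negative, with a median of -0.53 against -0.02 over all tested probe sets. Groups did not overlap for 4 of the 8, all lower in germ-free jejunum, where 8.47% of all probe sets were lower without overlap. Pglyrp1, a secreted protein that binds bacterial peptidoglycan, read 473 ± 88.8 in germ-free and 1060 ± 68.4 in conventional jejunum on 104099_at (-1.18 ± 0.40, adjusted p = 0.184), and its other probe set was -0.82 ± 0.39 (adjusted p = 0.383). Ly86 (MD-1), a partner of the receptor Cd180 on B cells, was at 59.9 ± 21.6 against 92.4 ± 11.1 (-0.69 ± 0.27, adjusted p = 0.262). Without 3 libraries 1 sensor probe set, of Pglyrp1, was called lower (limma adjusted p = 0.0127) and 6 of 8 were negative. The cytokine receptors gave 0 calls among 10 (median -0.01), and the known targets 1 higher and 0 lower among 34 (median -0.13). Vcam1 was at 29.8 ± 20.8 against 70.1 ± 11.9 (-1.25 ± 0.40, adjusted p = 0.157), and without 6 libraries it was called lower. Averaged over regions, Il1r1, the interleukin-1 receptor, was higher in germ-free mice (125 ± 42.8 against 81.0 ± 29.4, 0.64 ± 0.16, adjusted p = 0.0448), as was Cflar (0.78 ± 0.18, adjusted p = 0.0355). These were the only calls in the pathway lists for that mean, 1 of 10 cytokine receptor and 1 of 34 known target probe sets. Of all probe sets 1.68% were called there.

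Several marker lists, of immune and other cells, differed mostly in the same direction as Nfkbiz in the jejunum. All 11 tested pan-leukocyte probe sets were negative, 2 of them called lower (Lsp1 and Cd53), with a median of -0.86. Both calls were lost without 3 or 6 libraries, under quantile normalization and with array medians equalised, with all 11 still negative in each. Their summed signal was 933.2 to 1155.7 on the germ-free and 1859.6 to 2475.4 on the conventional jejunum arrays, without overlap. All 11 B and plasma cell probe sets were negative, 0 called, with a median of -1.27 and sums of 3273.0 to 5918.9 against 9400.2 to 13607.6. Of 16 macrophage and monocyte probe sets 13 were negative and 1 was called lower (Cyba, a subunit of the phagocyte oxidase), with a median of -0.49 and sums of 4816.1 to 5893.3 against 5164.7 to 8163.1. Under quantile normalization the only call in that list was Mrc1 (-1.50, adjusted p = 0.0429). Among other cells, 9 of 11 fibroblast and stroma probe sets (median -0.48) and 6 of 6 of smooth muscle (median -0.30) were negative, with 0 called. Region markers differed as well. Of the hindgut probe sets 4 of 4 were negative (median -1.84, 0 called). Positive were 7 of 7 jejunal enterocyte probe sets (median 3.09, 1 called, Fabp1) and 5 of 5 of the corpus glands (median 1.41, 0 called). Without 3 libraries the enterocyte median was 0.17 (6 of 7 positive) and the hindgut median -0.78 (3 of 4 negative). Without 6 libraries the enterocyte median was -0.05 (3 of 7 positive) and the hindgut median -0.83 (3 of 4 negative). The corpus gland median was 1.41 without 3 and 0.31 without 6. Fabp1 was still called higher in both reduced sets, as was the corpus gland gene Tff2, and without 6 so was Lct. Epithelial probe sets had a median of 0.25 and overlapping sums, 28521.9 to 30629.3 against 22050.0 to 33495.0. Probe sets at or under the floor on every array of a group numbered 1 of 12 in conventional and 2 of 12 in germ-free jejunum for the pan-leukocyte list, 6 and 8 of 25 for macrophages and monocytes, and 0 and 2 of 11 for B and plasma cells.

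The defining leukocyte gene Ptprc (CD45) read 15.3, 29.4 and 28.7 on the germ-free jejunum arrays and 97.0, 81.6 and 62.5 on the conventional ones (probe set 101048_at). Another Ptprc probe set, 101298_g_at, overlapped between states, at 4.4, 7.0 and 34.1 against 89.5, 9.8 and 48.1, and the remaining one, 101297_at, was under the floor on every array. Csf1r, a defining macrophage gene, overlapped between states, at 99.4, 185.5 and 208.1 against 207.9, 202.8 and 238.0 (104354_at). Another Csf1r probe set, 161832_r_at, overlapped too, at 114.4, 95.6 and 108.7 in germ-free against 75.1, 113.2 and 93.3 in conventional jejunum. The part of any of these cells or of the region markers in the Nfkbiz and Cd14 values was not tested. In whole tissue, fewer cells of a type and less RNA per cell cannot be told apart.

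**Figure D4:**
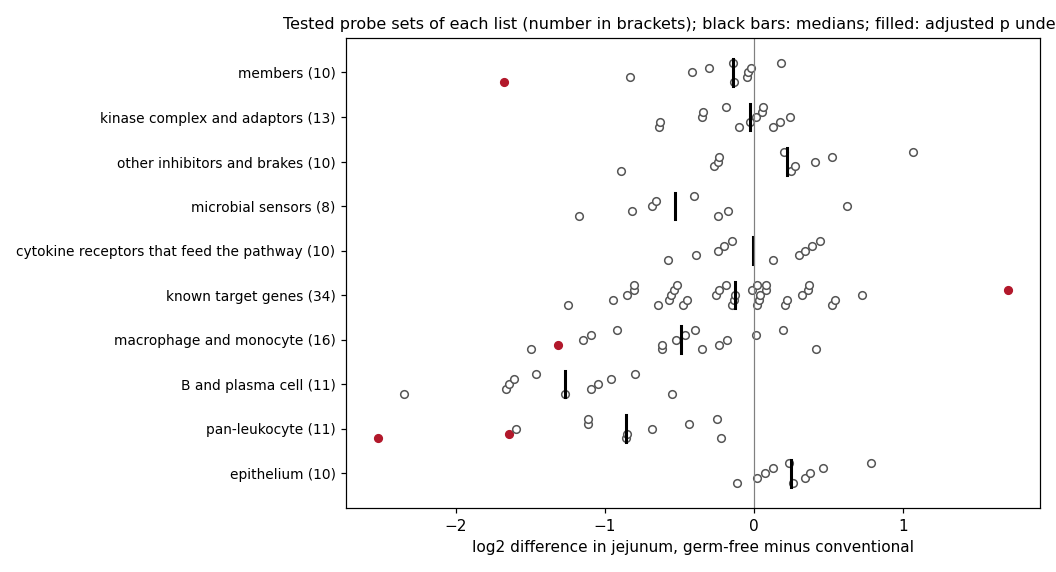
Log2 difference in the jejunum, germ-free minus conventional (x axis), of each tested probe set in the member list, 5 pathway lists and 4 marker lists (y axis, number tested in brackets); black bars are medians and filled points have an adjusted p under 0.05. The member median is -0.14, with Nfkbiz at -1.68 apart from the rest, while the pan-leukocyte and B and plasma cell medians are -0.86 and -1.27.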

How the data were processed

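RNA from 24 mouse gut tissue samples was measured on Affymetrix arrays, 3 in each of 8 groups taken from the sample titles. Each deposited value is a signal intensity on a linear scale; the middle 96% of probe sets averaged 200.1 on each array, so the authors' values were taken as already scaled. How signals were computed from probes is not given in the sources used here. Of 12488 probe sets, 10855 had 1 gene in the platform annotation, 396 several and 1237 none, and none was named from several. Probe sets of a gene were kept apart.

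Before log2 a floor of 21.2 (25th percentile of the table) was applied, so folds of dim probe sets are understated. A probe set entered the test if 3 or more arrays read over 51.5 (40th percentile), control probe sets left out, which left 9033. Differences were fitted with limma 3.58.1 (R 4.3.3, statmod 1.5.0), with a mean per group and an intensity trend in the variance, on all 24 arrays. Two-sided p-values were Benjamini-Hochberg adjusted over the 9033 and called under 0.05. Values are mean ± SD, differences estimate ± SE. The number of arrays limits the precision.

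Every member was described. From each pathway list, the members of lowest p in the jejunum or called in a status comparison could be named. The members and lists were chosen with earlier results of these data known. Alternatives covered scaling, floor, filter, variance trend, replicate numbers as a block, fits on the compared arrays alone and omission of single arrays; fits without 3 and without 6 libraries were chosen after seeing the data, as was the kappaB consensus. The steps were tested on simulated data.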

Additional observations from a re-analysis of the deposited data

How the results depend on the processing

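Of 1010 values of the 50 status differences of single member probe sets under all settings, 931 kept their direction and their side of the threshold, 66 changed sign without being called, 5 lost the call, 8 gained one and 0 reversed a call. The count of members called in the jejunum between states was 1 and became 0 when only the arrays compared were fitted. It ranged from 0 to 1 when single arrays were left out. Without 6 libraries the descending colon count rose from 0 to 1, by the Nfkbiz probe set 161903_f_at, which had passed the filter only through germ-free arrays. The count for the mean over regions rose from 0 to 1 without 3 and without 6 libraries and ranged from 0 to 1 over single omissions; Nfkbiz passed in 5 of 24 (without conventional jejunum 3, conventional rectum 3, germ-free descending colon 1, germ-free corpus 1 or germ-free jejunum 3), at adjusted p values down to 0.0359. The F test count rose from 0 to 1 in both reduced sets, by Nfkbiz, which is a description only. The jejunum and corpus count was 3, 5 without 3 libraries and 2 to 5 over single omissions. The descending colon and jejunum count was 1, 0 with the floor at the 10th percentile, 3 without 3 libraries, 2 without 6 and 0 to 2 over single omissions. The descending colon and corpus count of 3 ranged from 2 to 4. The cause of these changes was not tested.

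Equalising array medians moved the median of all probe sets by up to 0.18 (jejunum against corpus, from -0.10 to 0.08), and 9 of 50 member signs turned, none of them called. It raised the share of higher calls among all probe sets in the germ-free jejunum from 47.6% to 67.9%, and between jejunum and corpus from 41.6% to 60.4%. It lowered that share from 63.0% to 36.4% between descending colon and jejunum and from 48.7% to 32.1% for the mean over regions. Quantile normalization gave 60.9% in the germ-free jejunum.

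With the replicate number as a random block the jejunum count stayed at 1, and no member call changed. The labels do not say what a number marks: deviations of same-numbered arrays of one state correlated at a mean of 0.14 over 36 pairs (range -0.50 to 0.67), against -0.07 over 72 pairs with other numbers, and 16 of the 36 and 8 of the 72 were over 0.1. Whether numbers mark animals was not settled by this.

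Signal limits what can be said of Rel and the second probe sets of Rela and Relb, all below the filter, and of Tnfaip3 in the corpus, where 5 of 6 arrays were under the floor.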

Other observations

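The probe sets most like Nfkbiz (98988_at) over the 24 arrays, by Pearson correlation of log2 signals among 8099 probe sets of other genes, were Ubr3 (r = 0.789), Selenot (0.749), an immunoglobulin kappa probe set annotated as Igkv15-103 (0.723), Sptlc2 (0.722) and Hsp90b1 (0.717). Selenot and Hsp90b1 encode proteins of the endoplasmic reticulum, and Sptlc2 a subunit of the enzyme that starts sphingolipid synthesis. That probe set may detect RNA of related immunoglobulin genes, so its name is uncertain. Without 3 libraries the 5 correlations ran from 0.673 to 0.780.

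Those most like Cd14 were more closely matched: Nans (r = 0.958), a sialic acid synthase, Hgfac (0.945), a protease that activates hepatocyte growth factor, Inpp5j (0.943), Klk1b1 (0.942) and Baiap2l1 (0.941), among 8100 probe sets. Without 3 libraries these ran from 0.942 to 0.966. None of the 16 tested macrophage and monocyte probe sets was among the 5. So few of the 8100 candidates say nothing of which cells express Cd14. The arrays share their regions, so these correlations are descriptions over 24 arrays in 8 groups and carry no test.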
